A study of Oncorhynchus mykiss with 12 samples.

Results

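The genes described here are the rainbow trout (Oncorhynchus mykiss) loci for the NFE2L1 and NFE2L2 transcription factors, their inhibitor KEAP1, the repressor BACH1 and the small MAF proteins. They were chosen by name: rows of the liver RNA-seq table whose symbol was nfe2l1, nfe2l2, nfe2l3, keap1, mafg, maff, mafk or bach1, with or without a paralog suffix, or whose description opened with a full name of NFE2L1, NFE2L2 or KEAP1. This gave 23 of the 42128 rows, all 23 by symbol and 10 of them also by description. There were 6 NFE2L1 rows, 3 NFE2L2, 3 KEAP1, 3 BACH1 and 8 small MAF rows, while 0 rows carried the symbol nfe2l3 and 0 the symbol mafg. Total RNA came from flash-frozen liver of fish labelled wild-type, in a control group (3 RNA-seq libraries) and in a group kept 1 month in moderately hypoxic water (3 RNA-seq libraries). The labels put its oxygen at 4.5 ± 0.1 mg/L. Age, sex and strain are not given, and nothing in the labels says whether replicates were separate fish, so the spread between libraries may be technical. The genes were put forward with results of hypoxia against control already known, so their fold changes and adjusted p-values are a description and test nothing.

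NFE2L2 (also called NRF2) is a cap'n'collar (CNC) factor that switches on genes for glutathione synthesis, quinone and heme breakdown and NADPH supply. KEAP1 holds it in the cytosol and hands it to a cullin 3 ubiquitin ligase, and oxidants or electrophiles that modify KEAP1 release it. NFE2L1 (NRF1) is a relative anchored in the endoplasmic reticulum membrane, which is cut loose when proteasomes are overloaded and then raises the genes of proteasome subunits. Each CNC factor binds DNA as a pair with a small MAF protein (MAFF, MAFG or MAFK). BACH1 pairs with the same MAF proteins as a repressor, and heme removes it from DNA. Most of this control acts on protein stability and location, which RNA levels do not show.

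The 6 libraries held 19060468 to 23152833 counts. A principal component analysis put 44.1% of the variance on component 1, where the scores were -9.57 for control replicate 1, -41.8 and -38.7 for the other controls and 24.9 to 33.2 for the hypoxia libraries. Control replicate 1 therefore stood apart from its group, and values without it are given beside results that it moved. Hepatocyte markers summed to 62780 to 63480 FPKM (fragments per kilobase of transcript, scaled to library size) in controls and 63550 to 69920 in hypoxia, so the tissue label and its markers went together. Among markers of other cells, 13 of 17 tested red cell genes, 5 of 14 stellate and endothelial genes and 1 of 7 macrophage genes were lower in hypoxia (edgeR adjusted p under 0.05), and 8 of 10 genes of dividing cells were higher. Of all genes tested, 3.39% were lower and 3.83% higher by the same rule.

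Trout carry duplicated chromosomes, and the neighbours of each locus in the RefSeq gene table of assembly USDA_OmykA_1.1 show which rows are copies of each other. All 23 numbers matched that table. Among the 5 protein-coding genes on each side, NFE2L1 110486161 and NFE2L1 110538084 shared 9 neighbour names, among them COPZ1, CBX1 and the first hoxb genes. The rows nfe2l1b 110491500 and NFE2L1 110499125 shared 3 names, among them SNX11 and SKAP1. NFE2L1 110499125 also shared 3 (CBX1, OSBPL6 and TBKBP1) with each of the first pair, so the number of shared names does not settle its nearest copy. Its hox neighbours hoxb5b and hoxb6b carry the suffix b, as does hoxb1b beside nfe2l1b. Those of the first pair included hoxb2a, hoxb3a and hoxb4a. NFE2L1 110487944 and NFE2L1 110496561 instead sat beside CBX3, SNX10A and hoxa genes (5 shared names), which is where the NFE2L3 gene lies in the human genome. Their rows are named as NFE2L1 in the file and are called so here.

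The remaining families were compared in the same way, and not every row had a partner. For NFE2L2, nfe2l2a 101268905 and NFE2L2 110501922 shared 8 names, with HNRNPA3 and AGPS as next neighbours, while NFE2L2 110527610 sat between mtx2 and RBM45. Both keap1b rows shared all 10 neighbour names, and keap1a shared none with them. Both maff rows shared 8, and MAFK 110486304 and mafk 110538239 shared 5. The 4 rows described as MafG carry the file symbols MAFK (110485496, 110485498) and MAFF (110487052, 110487058), and each has MYADML2 and NOTUM1A nearby. In the human genome MYADML2 and NOTUM lie close to MAFG. The 3 BACH1 rows shared no exact neighbour name, though cadm2b, CADM2 and cadm2a lay near Bach1 110508103, Bach1 110533253 and bach1b in that order. Bach1 110533253 lies next to a row named sodc, and bach1b 110510280 has sod1 among its neighbours. Reads may be split between near-copies, so the level of a single copy is uncertain.

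In control liver the most abundant transcripts were those of the KEAP1 and NFE2L2 loci. Nfe2l2a had 15.4 ± 2.17 FPKM (mean ± SD, n = 3), keap1b 118938209 had 13.7 ± 1.19, NFE2L2 110501922 had 12.1 ± 0.968 and keap1b 110485638 had 10.7 ± 2.38. Neighbours in this order overlapped, apart from keap1b 118938209 and NFE2L2 110501922. The next level was that of NFE2L1 110486161 at 7.45 ± 0.723 FPKM, the highest of the NFE2L1 loci, and its control range lay below that of keap1b 110485638. Next in the order were NFE2L2 110527610 (5.27 ± 1.76), NFE2L1 110538084, keap1a, nfe2l1b and maff 110499082. Bach1 110508103, MAFF 110502884, Bach1 110533253, NFE2L1 110499125 and NFE2L1 110487944 (1.39 ± 0.271) followed. From NFE2L2 110527610 to NFE2L1 110487944, every neighbour in the order overlapped the next. The repressor locus bach1b had 1.07 ± 0.098 FPKM. Last came NFE2L1 110496561 at 0.618 ± 0.225 and the MAFK and MafG rows, from 0.605 ± 0.154 FPKM down to 0.0137.

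Summed over copies, KEAP1 had 32.9, 24.0 and 26.4 FPKM in the control libraries and NFE2L2 had 33.4, 31.5 and 33.3. In hypoxia the KEAP1 sums were 24.3, 24.0 and 24.9 FPKM, which overlapped the controls, and the NFE2L2 sums were 26.3, 26.1 and 29.4, which lay below them. The ratio of KEAP1 to NFE2L2 transcripts was 0.985, 0.763 and 0.792 in controls and 0.921, 0.923 and 0.845 in hypoxia, so its groups overlapped. Small MAF rows summed to only 4.96 to 9.02 FPKM in controls, mostly from both maff rows.

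Of the 23 rows, 18 had a mean of at least 0.5 FPKM over the 6 libraries and were tested. In the edgeR fit across 19365 genes 2 of these 18 were lower in hypoxia at an adjusted p under 0.05, against 3.39% of all genes tested (7.22% were called in either direction). None were higher (0 of 18 in edgeR, 0 at an unadjusted p, 0 in DESeq2 and 0 in limma), against 3.83% of all genes. At an unadjusted edgeR p under 0.05, 5 of the 18 were lower, against 23.7% of all genes in either direction. The FPKM groups did not overlap in 4 of the 18, each time lower in hypoxia, against 13.1% of all genes lower and 13.9% higher. On CPM from the tested counts, the groups of 7 did not overlap with hypoxia lower, against 14.6% of all genes, and those of 1, NFE2L1 110496561, with hypoxia higher, against 14.2%. Fold changes were below 0 for 15 of the 18, with a median of -0.24 on the log2 scale, beside 50.5% of genes and a median of -0.00461 over all genes tested. Without control replicate 1 the sign turned at 4 loci, each from below 0 to above 0. They were maff 110499082 (0.19), MAFF 110502884 (0.08), MAFK 110485496 (0.18) and NFE2L2 110501922 (0.00093). In FPKM, control replicate 1 was the highest of the 6 libraries in 13 of the 18 rows, against 21.5% of all genes tested. In CPM, bach1b and NFE2L2 110501922, which are among these 13, were highest in control replicate 2.

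**Figure D1:**
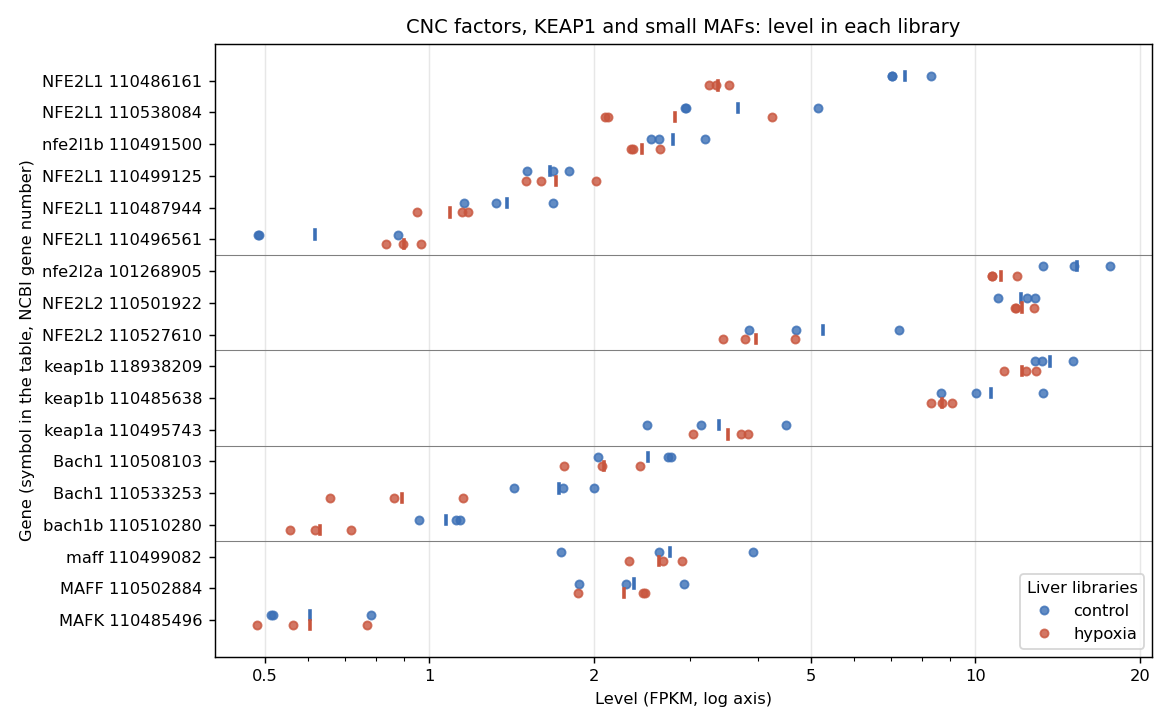
Level in FPKM (log axis) of the 18 tested regulator loci in each library. Points are libraries (blue control, red hypoxia, 3 each) and short lines are group means. NFE2L1 110486161, at 7.03 to 8.28 FPKM in controls and 3.25 to 3.54 in hypoxia, has the widest gap between groups.

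NFE2L1 110486161 had the smallest p of these loci. It had 8.28, 7.03 and 7.03 FPKM in the control libraries and 3.54, 3.36 and 3.25 in the hypoxia libraries. The groups stood well apart, and the lowest control was above the highest hypoxia library by more than the range of either group. Its log2 fold change was -1.16 (SE 0.13, 95% interval -1.44 to -0.88, edgeR adjusted p = 0.00357), that is 2.23-fold lower, and it ranked 8 by p among all genes tested. Its call was kept in 12 of 12 alternative fits, with log2 fold changes of -1.18 to -1.03 and adjusted p of 3.37e-10 to 0.028. The authors' deposited table gives it a log2 fold change of -1.14 and an adjusted p of 1.18e-10. In bulk liver, fewer cells of a type and less RNA per cell cannot be told apart.

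The copy that shares its neighbourhood, NFE2L1 110538084, did not show groups apart. It had 5.15, 2.95 and 2.94 FPKM in controls and 2.1, 2.13 and 4.24 in hypoxia. Hypoxia replicate 3 was above 2 of the controls, and the other hypoxia libraries were below all of them. Its log2 fold change was -0.40 (SE 0.27, edgeR adjusted p = 0.421), and -0.79 without hypoxia replicate 3 (edgeR adjusted p = 0.105) and -0.12 without control replicate 1 (0.817). The ratio of NFE2L1 110486161 to this copy was 1.61, 2.39 and 2.39 in controls and 1.69, 1.58 and 0.766 in hypoxia, so the balance of the pair overlapped between groups.

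The other 4 NFE2L1 rows had log2 fold changes on either side of 0. Nfe2l1b was at -0.21 (SE 0.13) and NFE2L1 110499125 at 0.03 (SE 0.15), with 95% intervals of -0.51 to 0.08 and -0.31 to 0.36. In the pair beside CBX3, NFE2L1 110487944 was at -0.38 (SE 0.19), with 1.16, 1.33 and 1.69 FPKM in controls and 1.18, 0.950 and 1.15 in hypoxia, and at -0.19 without control replicate 3. NFE2L1 110496561 was at 0.54 (SE 0.26), the only tested regulator with a log2 fold change above 0.1, and had 0.878, 0.489 and 0.487 FPKM in controls and 0.897, 0.833 and 0.966 in hypoxia. Its first control lay next to the hypoxia libraries, and without that library the log2 fold change was 0.83 (edgeR adjusted p = 0.0671). This row rests on 38 to 65 counts per library.

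Summed over the 6 loci, NFE2L1 transcripts came to 20.5, 15.9 and 16.4 FPKM in controls and 12.1, 11.1 and 13.9 in hypoxia. These sums include the pair beside CBX3, NFE2L1 110487944 and NFE2L1 110496561. The pair had means of 1.39 and 0.618 FPKM in controls and 1.09 and 0.899 in hypoxia. Without NFE2L1 110486161 the sums were 12.2, 8.91 and 9.35 against 8.54, 7.78 and 10.6 FPKM, and the groups overlapped. That locus made up 40.5%, 44.1% and 42.9% of the family sum in controls and 29.3%, 30.2% and 23.4% in hypoxia.

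**Figure D2:**
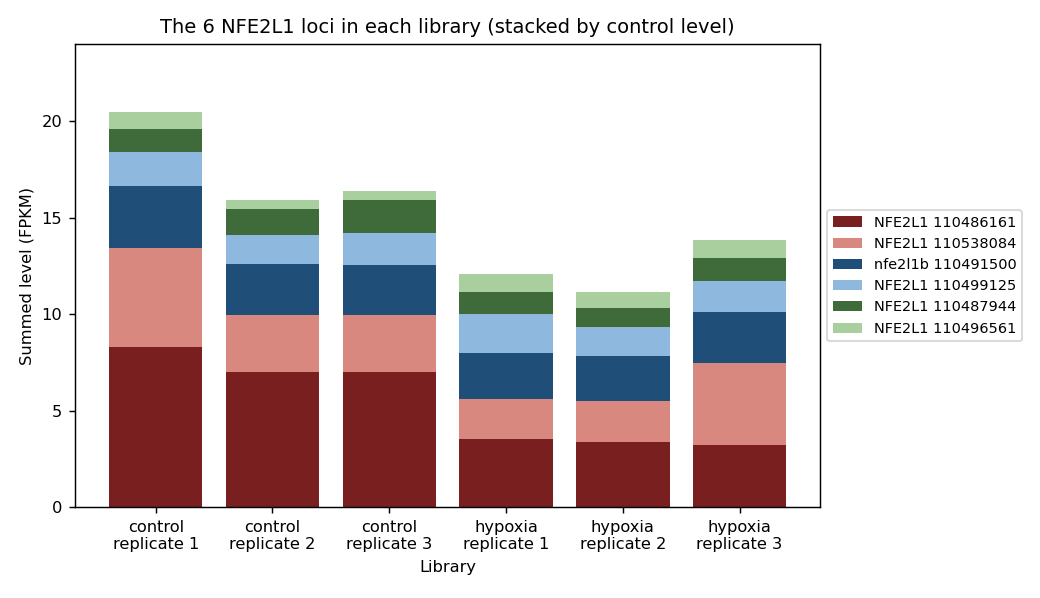
Level in FPKM of the 6 NFE2L1 loci stacked for each library, highest control level at the bottom. The dark red segment, NFE2L1 110486161, goes from 7.03 to 8.28 FPKM in controls to 3.25 to 3.54 in hypoxia, while the other segments overlap between groups.

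NFE2L2, the main activator of the antioxidant response, was spread over 3 loci with log2 fold changes of -0.53 to -0.01. Nfe2l2a had 13.3, 15.2 and 17.6 FPKM in controls and 10.7, 10.7 and 11.9 in hypoxia, without overlap. Its log2 fold change was -0.49 (SE 0.15) with an edgeR adjusted p of 0.0698, which passed in DESeq2 (0.0418) and without control replicate 1 (-0.61, edgeR adjusted p = 0.0173). Its adjusted p over the 12 alternatives was 0.0173 to 0.224. DESeq2 called 4.34% of all genes lower, and edgeR without control replicate 1 called 5.45%.

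Its duplicate NFE2L2 110501922 was level across groups. It had 12.9, 12.4 and 11.0 FPKM in controls and 11.8, 11.8 and 12.8 in hypoxia, with a log2 fold change of -0.01 and a 95% interval of -0.28 to 0.26. The ratio of nfe2l2a to this copy was 1.03, 1.22 and 1.601 in controls and 0.906, 0.907 and 0.931 in hypoxia, and these groups did not overlap. In FPKM nfe2l2a was thus above this copy in every control library and below it in every hypoxia library. Its counts were above those of the copy in every library. They were 903, 1173 and 1438 against 621, 684 and 639 in controls, and 736, 756 and 798 against 578, 593 and 610 in hypoxia. Which copy was the more abundant in hypoxia therefore depends on the transcript lengths behind FPKM, and reads may be split between the copies.

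For the third locus, NFE2L2 110527610, counts and FPKM gave different pictures. In CPM (counts relative to a library size scaled by the trimmed mean of M-values) it had 15.5, 11.3 and 12.3 in controls and 9.28, 9.01 and 8.74 in hypoxia, without overlap. In FPKM it had 7.24, 3.86 and 4.70 against 3.78, 3.45 and 4.68, and the groups overlapped. The length implied by the ratio of count to FPKM varied 1.498-fold between libraries for this locus, more than for all but 1.24% of genes, and hypoxia replicate 3 had the lowest value. Its log2 fold change from counts was -0.53 (SE 0.15, edgeR adjusted p = 0.0607), and -0.39 without control replicate 1 (0.114). On log2(FPKM + 0.5) in limma the log2 fold change was -0.33 (adjusted p = 0.407). NFE2L1 110486161 (1.00-fold) and nfe2l2a (1.00-fold) showed no such variation in implied length.

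Transcripts of KEAP1, the inhibitor of NFE2L2, did not pass the threshold at any of their 3 loci. Keap1b 118938209 had 15.1, 12.9 and 13.2 FPKM in controls and 12.9, 11.3 and 12.4 in hypoxia, with a log2 fold change of -0.19 and a 95% interval of -0.45 to 0.07. Keap1b 110485638 had 13.3, 8.66 and 10.02 FPKM against 8.31, 9.05 and 8.68, and was at -0.26 (-0.59 to 0.07). Control replicate 1 was the highest library at both, and without it they were at -0.15 and -0.12. Keap1a had 4.51, 2.51 and 3.15 FPKM against 3.04, 3.72 and 3.84, at 0.06 (-0.36 to 0.49), or 0.27 without control replicate 1 and -0.09 without control replicate 2. A change of these transcripts by 2-fold lies outside each of these intervals, which hold for a single gene and are not adjusted over genes.

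BACH1, the heme-sensitive repressor of the same DNA elements, had a lower mean in hypoxia than in controls at all 3 of its loci. Bach1 110533253 had 2.004, 1.76 and 1.43 FPKM in controls and 0.861, 0.659 and 1.16 in hypoxia, without overlap. Its log2 fold change was -0.95 (SE 0.23, edgeR adjusted p = 0.0349), and the authors' deposited table gives -0.96 with an adjusted p of 0.0388. The call held in 4 of 12 alternative fits. Leaving out control libraries 1, 2 and 3 in turn gave an edgeR adjusted p of 0.0616, 0.102 and 0.0588. Leaving out hypoxia libraries 1, 2 and 3 gave 0.121, 0.114 and 0.0466.

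The paralog bach1b lay just outside the threshold. It had 1.14, 1.12 and 0.960 FPKM in controls and 0.720, 0.557 and 0.617 in hypoxia, and the groups did not overlap. Its log2 fold change was -0.79 (SE 0.22) with an edgeR adjusted p of 0.0504, and of 0.0509 to 0.154 over the 12 alternatives. Bach1 110508103, whose row is described as uncharacterized, was at -0.27 (SE 0.16) with 2.74, 2.77 and 2.04 FPKM against 2.07, 1.76 and 2.44, which overlapped. Summed over copies, BACH1 had 5.88, 5.65 and 4.42 FPKM in controls and 3.65, 2.98 and 4.21 in hypoxia.

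**Figure D3:**
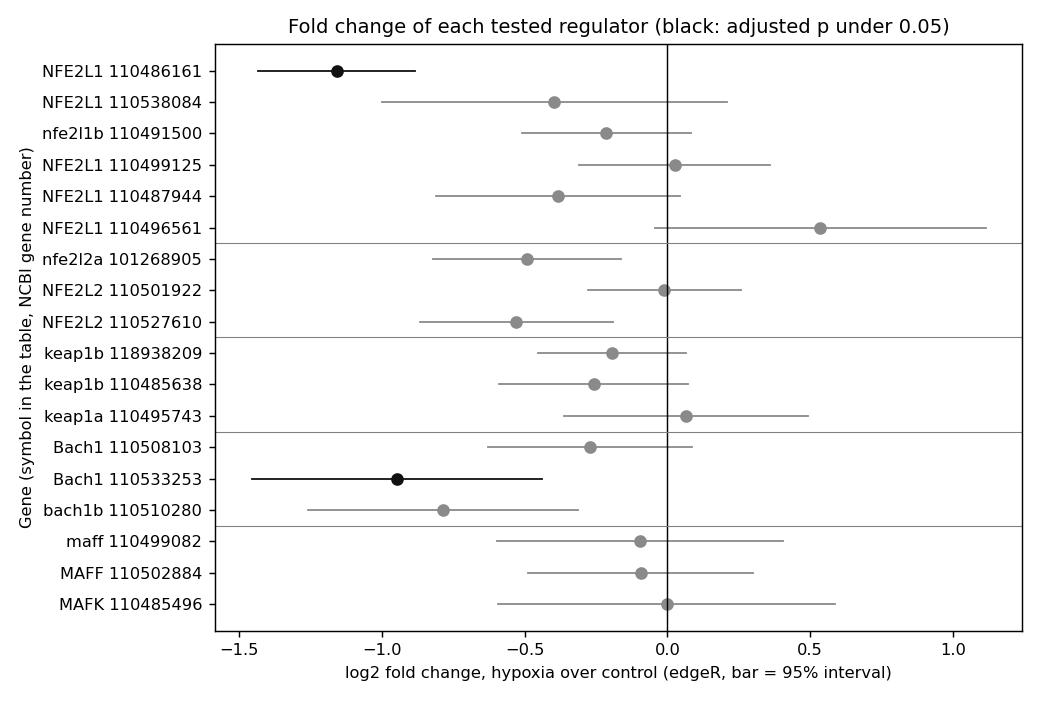
Log2 fold change of hypoxia over control from edgeR for the 18 tested regulator loci, with bars for the 95% interval of each gene alone. The black loci, NFE2L1 110486161 at -1.16 and Bach1 110533253 at -0.95, had an adjusted p under 0.05.

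The small MAF partners showed no locus past the threshold. Maff 110499082 had 3.92, 1.74 and 2.64 FPKM in controls and 2.68, 2.33 and 2.90 in hypoxia, with a log2 fold change of -0.10 (95% interval -0.60 to 0.41). MAFF 110502884 was at -0.09 (-0.49 to 0.30). At both, controls 1 and 2 were the highest and lowest of the control libraries, and the sign of the fold change turned without control replicate 1 (0.19 and 0.08). The MafG-described row MAFK 110485496 was at -0.00 (-0.59 to 0.59), with 0.783, 0.514 and 0.517 FPKM against 0.485, 0.564 and 0.770.

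The 5 rows that were not tested were all small MAFs, with means of 0.00683 to 0.47 FPKM. Of these, MAFK 110486304 had 42, 27 and 62 counts in controls and 24, 34 and 21 in hypoxia, and mafk 110538239 had 22, 12 and 13 against 10, 10 and 20. MAFK 110485498 and MAFF 110487052 had 0 to 7 counts per library. MAFF 110487058 had 1 count in all, in control replicate 3. In the edgeR fit with no filter MAFK 110486304 was at -0.61 (SE 0.34, adjusted p = 0.399) and mafk 110538239 at -0.13 (SE 0.51, 0.930). For the other 3 rows a difference was not detectable at these depths.

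BACH1 and the CNC factor NF-E2 are also known from red cell development, and red cell transcripts are set beside the lower values of NFE2L1 110486161 and the BACH1 loci. The red cell marker list (45 rows, 24 of them at 0 in every library) summed to 1120, 891 and 1224 FPKM in controls and 602, 579 and 466 in hypoxia. All 17 tested rows had a fold change below 0, with a median of -0.91, and 13 passed. Within the list alas2, the red cell enzyme of heme synthesis, had 7.71 ± 1.63 FPKM in controls and 7.67 ± 2.18 in hypoxia, and the red cell anion exchanger slc4a1 was at -0.58 and -0.26 without passing at either of its loci (edgeR adjusted p = 0.157 and 0.467). The red cell factor NF-E2 had 0.399 ± 0.151 and 0.451 ± 0.112 FPKM at 1 row and under 0.15 FPKM in every library at the other. These rows were named after their values were seen. Stellate and endothelial markers (17 rows, none at 0 in all libraries) summed to 348, 306 and 266 FPKM against 172, 184 and 256. Macrophage markers, 12 rows with none at 0 in all libraries, summed to 50.1, 39.1 and 42.8 FPKM against 41.5, 36.1 and 43.3. The part of these cells in the regulators' values was not tested.

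The genes most like NFE2L1 110486161 over the 6 libraries, by Pearson's r of log2(FPKM + 0.5) among 15194 genes with a mean of at least 1 FPKM, all had lower values in hypoxia without overlap. Among them were a mitochondrial protein adenylyltransferase SelO-1 (r = 0.995), the ubiquitin-conjugating enzyme UBE2H (0.994), the matrix protein SPARC (0.993) and the adaptor EFS (0.991). UBE2H had 5.06, 4.86 and 4.97 FPKM in controls and 3.41, 3.26 and 3.21 in hypoxia. Most like nfe2l2a, the most abundant regulator, were the phosphatase subunit ppp1caa (r = 0.997), the riboflavin transporter slc52a3 (0.997), the LDL receptor adaptor ldlrap1a (0.995), the protease pcsk5b (0.994) and EI24 (0.993). Slc52a3 had 3.07, 4.07 and 5.34 FPKM in controls and 1.61, 1.70 and 2.22 in hypoxia, in the same order of libraries within the control group as nfe2l2a. With 6 libraries in 2 groups, such values are high for any gene that follows the groups.

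The genes around the regulators were grouped in lists, matched on gene symbols or opening words of the descriptions. Over all 19365 genes, 1398 were called with all libraries, 2186 without control replicate 1 and 361 to 496 without any other single library. An unadjusted edgeR p under 0.05, in either direction, was found for 23.7% of all genes tested. Other CNC and large MAF factors numbered 17 rows, of which 4 could be tested and 0 passed (edgeR, 1 at an unadjusted p under 0.05, 0 in DESeq2, 0 in limma). The large MAF factors mafb 110527907 and mafba, both known from macrophages, had 7.69 ± 1.4 and 5.38 ± 0.600 FPKM in controls and 6.94 ± 0.382 and 5.21 ± 0.515 in hypoxia. Their log2 fold changes were -0.17 and -0.07. The remaining tested rows, named after their values were seen, were mafb 110494563 at -0.56 and BACH2 at 0.20 (edgeR adjusted p = 0.205 and 0.649).

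Partners and competitors in the control of NFE2L2 were tested at 29 of 32 rows, with a median log2 fold change of -0.06, and 1 rose, a share near the 3.83% of all genes called higher. The cullin exchange factor CAND1 110490682 rose by 0.77 (SE 0.16, edgeR adjusted p = 0.0212) on counts, but its FPKM of 23.1, 17.3 and 9.21 in controls and 31.2, 11.7 and 24.3 in hypoxia overlapped. It lost its call without control replicate 2, hypoxia replicate 1 or hypoxia replicate 3, where 0 members were higher. In those fits 361 to 473 of all genes were called, against 1398 with all libraries. None fell in edgeR with all libraries (4 at an unadjusted p, 1 in DESeq2, 0 in limma), whereas 2 fell without control replicate 1 and 1 without control replicate 3. Of all genes, 23.7% had an unadjusted edgeR p under 0.05 in either direction. DESeq2 called 4.34% of all genes lower, and edgeR without control replicate 1 called 5.45%. The 4 cullin 3 loci, the scaffold of the KEAP1 ligase, were within -0.25 to 0.10 and did not pass. The autophagy receptor sqstm1 110505107, which competes for KEAP1 and was named after its values were seen, had 52.1, 41.9 and 23.7 FPKM in controls and 20.1, 20.8 and 26.2 in hypoxia, at -0.82 with an edgeR adjusted p of 0.0519. The more abundant row Sqstm1 110488911 had 58.8, 54.7 and 37.0 FPKM in controls and 33.8, 34.6 and 51.2 in hypoxia. Its groups overlapped, and it was at -0.35 (edgeR adjusted p = 0.298).

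Genes for the processing and turnover of NFE2L1 were tested at 25 of 27 rows, with a median of -0.10. Of these 3 rose, against 3.83% of all genes, and 1 fell, against 3.39%. Those that rose were 3 of the 4 tested loci of Hcfc1, a transcription cofactor known to bind NFE2L1 in mammals, and the other, hcfc1b, was at 0.20 (edgeR adjusted p = 0.41). Hcfc1 110494567 rose by 1.28 (SE 0.26, edgeR adjusted p = 0.0178), from 0.491 ± 0.190 to 1.21 ± 0.316 FPKM, and the other two by 0.69 and 0.57. The list's 1 fall was FBXW7 110534508, a ubiquitin ligase receptor known to act on NFE2L1, from 1.70 ± 0.413 to 1.00 ± 0.142 FPKM (fell by 0.80, SE 0.21, edgeR adjusted p = 0.0446). Leaving out control libraries 1, 2 and 3 in turn gave 3, 1 and 0 higher, and leaving out hypoxia libraries gave 0, 1 and 0. FBXW7 passed in 1 of these 6 fits, the one without control replicate 1. Calls over all genes numbered 2186 in that fit and 361 to 496 in the others, against 1398 with all libraries. Limma on FPKM called 0 in either direction. Enzymes that release NFE2L1 from the membrane, named after their values were seen, did not pass. The protease ddi2 was at -0.12 and -0.20, the deglycosylase ngly1 at -0.04, the extracting ATPase VCP at -0.16 and 0.22, and the ligase syvn1 at -0.28 and -0.06.

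Antioxidant response genes, a list of known mammalian NFE2L2 targets and of rows matched by description, had a share of calls near that of all genes. Of 53 tested (69 rows) 3 rose and 2 fell, against 3.83% and 3.39% of all genes, and the median was 0.07. Fold changes were above 0 for 33 and below 0 for 20, beside 50.5% of all genes below 0. Summed over its rows, the list had 1429, 1399 and 1191 FPKM in controls and 1686, 1470 and 1700 in hypoxia, without overlap. Such a sum weighs the most abundant rows most. Thioredoxin (txn 110500479) rose by 0.63 (SE 0.14, edgeR adjusted p = 0.0268), from 96.9 ± 10.1 to 152 ± 27.8 FPKM. MGST1 110527635, a microsomal glutathione transferase, rose by 0.65 (SE 0.16), and BLVRB 110525440, a flavin and biliverdin reductase named after its value was seen, by 1.25 (SE 0.34). The falls were in heme oxygenase 2, the constitutive form of the heme-degrading enzyme, which entered the list by its description, with HMOX2 110512532 fallen by 0.47 (SE 0.12) from 13.3 ± 0.898 to 9.71 ± 0.210 FPKM and hmox2b by 0.59 (SE 0.16). Leaving out control libraries 1, 2 and 3 in turn gave 6, 0 and 0 higher and 2, 0 and 0 lower. Leaving out hypoxia libraries gave 0, 1 and 1 higher and 0 lower each time. The number of all genes called also moved, from 1398 to 2186 without control replicate 1 and to 361 to 496 without any other library.

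Several textbook NFE2L2 targets, named after their values were seen, did not pass. Nqo1 110519426, a quinone reductase, had 9.27, 7.30 and 5.75 FPKM in controls and 6.91, 7.63 and 8.13 in hypoxia (log2 fold change 0.01). For glutathione synthesis, gclc 110499382 was at 0.46 (SE 0.15, edgeR adjusted p = 0.0925) and GCLM 110521555 at 0.80 (SE 0.32, 0.159). The other tested rows of these genes, Gclc 110502703 and GCLM 110524422, were at 0.33 and 0.42 (edgeR adjusted p = 0.399 and 0.447). The other tested row of the quinone reductase, nqo1 110513842, was at 0.19 (0.731). FPKM groups of GCLM 110524422 and nqo1 110513842 did not overlap, with hypoxia higher, against 13.9% of all genes tested. The cystine/glutamate transporter Slc7a11 110490496 instead had a lower mean in hypoxia, at -0.77 (SE 0.24, edgeR adjusted p = 0.0746). It had 11.02, 8.227 and 5.645 FPKM in controls and 3.587, 4.849 and 6.341 in hypoxia, which overlapped. The row described as heme oxygenase 1a, hmox1a 110486536, had only 0.460 ± 0.130 FPKM in controls and 0.334 ± 0.151 in hypoxia. A row described as heme oxygenase with no form named, hmox 110485518, had 25.6 FPKM in control replicate 1. It had 5.20 and 3.53 FPKM in the other controls and 11.6, 21.1 and 9.34 in hypoxia. Its copy hmox 118936555 had 19.6 FPKM in the same control library, against 3.01 and 2.94 in the others and 7.63, 11.1 and 7.62 in hypoxia. Both hmox rows were thus higher in all hypoxia libraries than in control replicates 2 and 3, and highest in control replicate 1. In FPKM, 13 of the 18 tested regulators also peaked in that library, against 21.5% of all genes tested. Of these 13, bach1b and NFE2L2 110501922 peaked in control replicate 2 in CPM. A link between the regulators and these rows was not tested.

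Enzymes of NADPH supply, which include known NFE2L2 targets of the pentose phosphate pathway, were mostly lower. Of 11 tested (15 rows) 5 fell and 1 rose, against 3.39% and 3.83% of all genes, with a median of -0.38. Transaldolase (TALDO1 110526102) had 56.9, 54.3 and 48.8 FPKM in controls and 32.8, 28.8 and 35.5 in hypoxia, and fell by 0.74 (SE 0.12, edgeR adjusted p = 0.00903), a call kept in 6 of 6 fits without 1 library. Malic enzyme me1 fell by 0.94 (SE 0.20), transketolase (TKT 110492710) by 0.64 (SE 0.14), from 426 ± 64.7 to 277 ± 25.9 FPKM, and pgd by 0.57 (SE 0.15). The rise was in idh1 110520228, by 0.55 (SE 0.14), named after its value was seen. Leaving out control libraries 1, 2 and 3 in turn gave 4, 1 and 4 lower and 1, 0 and 0 higher. Leaving out hypoxia libraries gave 1, 1 and 2 lower and 0 higher each time. Beside this, 2186 of all genes were called without control replicate 1 and 361 to 496 without any other library, against 1398 with all.

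Proteasome subunits, known in mammals as targets of NFE2L1, mostly had fold changes above 0. Of 38 tested genes of the 20S core (42 rows) 6 rose, against 3.83% of all genes, and 0 fell (edgeR, 0 fell at an unadjusted p, 0 in DESeq2, 0 in limma), with a median of 0.30 and 34 above 0. PSMA7 110532009 had 6.76, 4.47 and 4.59 FPKM in controls and 12.5, 9.33 and 10.3 in hypoxia, and rose by 1.01 (SE 0.17, edgeR adjusted p = 0.00956), as it did in 6 of 6 fits without 1 library. PSMA6 110503695 rose by 0.98 (SE 0.22), psmb3 by 0.55 (SE 0.13) and psma7 110524636 by 0.57 (SE 0.14). Without control replicate 1 there were 6 core genes higher, and 1 without any single one of the other libraries. The same fits called 2186 and 361 to 496 of all genes, against 1398 with all libraries.

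Genes of the 19S cap and of proteasome assembly had 2 higher of 52 tested (55 rows), a share near the 3.83% of all genes, and 0 lower (edgeR, 0 at an unadjusted p, 0 in DESeq2, 0 in limma), with a median of 0.14. The assembly chaperone psmg1 had 6.98, 6.55 and 6.22 FPKM in controls and 12.4, 11.5 and 11.9 in hypoxia, and rose by 0.84 (SE 0.12, edgeR adjusted p = 0.00793). It kept its call in 6 of 6 fits without 1 library, and the cap subunit psmd8, which rose by 0.55 (SE 0.14), in 1 of them, the one without control replicate 3.

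**Figure D4:**
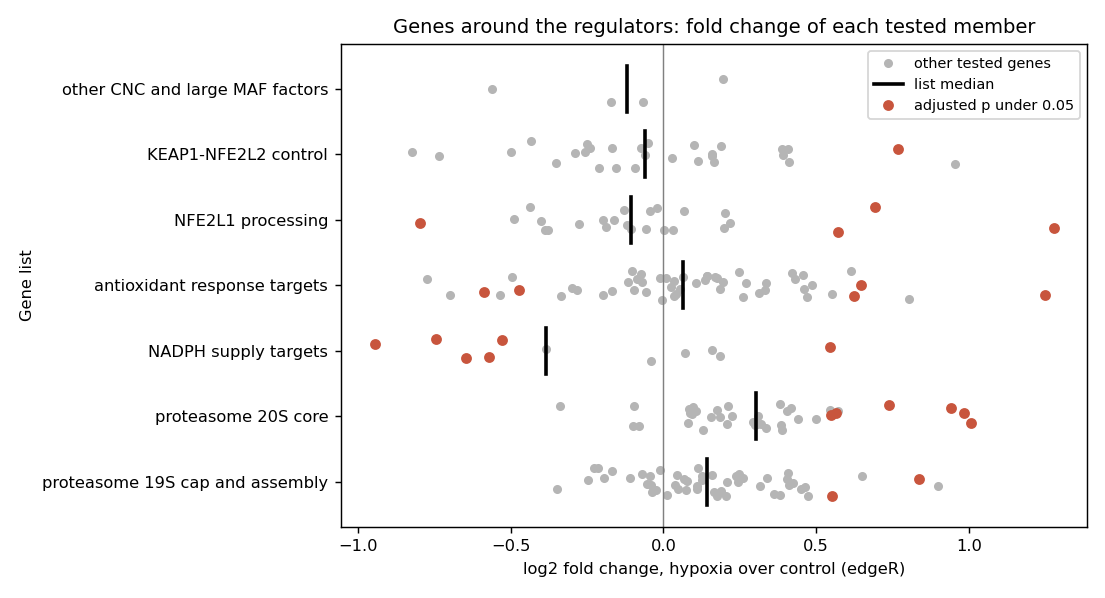
Log2 fold change of hypoxia over control from edgeR for each tested gene of 7 lists around the regulators (points, red for an adjusted p under 0.05) with the median of each list (black line). Medians run from -0.38 for NADPH supply to 0.30 for the 20S proteasome core.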

How the data were processed

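Liver total RNA was sequenced in 6 RNA-seq libraries, 3 per group. The small RNA libraries of the series hold no row for these genes and were not used. The deposited table holds raw counts and FPKM per gene, per the file headers, with the authors' log2 fold change, p-value and adjusted p-value. The submitters' processing notes list TopHat2 2.1.1 and Bowtie2 2.2.8 but no role for them. Quantifier, genome build and the statistical model behind the deposited p-values: not given in the sources used here. Of 42128 rows 41896 matched the RefSeq table, which was used for names and neighbours only.

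Counts were tested with edgeR 4.0.16 in R 4.3.3 (quasi-likelihood, TMM scaling, group only, two-sided) over the 19365 genes whose mean FPKM reached 0.5. Benjamini-Hochberg adjustment covered all of them, with a threshold of 0.05. Levels are deposited FPKM. Each SE was derived from the F statistic, as the unsigned log2 fold change over its root, and intervals are 95% intervals from the fit. Alternatives used DESeq2 1.42.0 and limma 3.58.1. The fit was also run on simulated data with 200 changed genes, with an outcome not reported here. In that simulation no library stood apart as control replicate 1 did, so it does not cover this feature of the data.

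Members and lists were chosen with earlier results of these data known. Named genes were every member, up to 4 called members of each list by adjusted p or the 2 most abundant, and the 5 genes most like the member of smallest p and the most abundant member; a few genes that this rule or a count takes in are not reported here. Replicate pairs differed beyond counting noise (chi-square per degree of freedom 12.4 to 30.1).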

Additional observations from a re-analysis of the deposited data

How the results depend on the processing

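Of 216 refits of single regulators (18 loci, 12 alternatives), 188 kept direction and side of the threshold. The 69 control levels without 1 library stayed within 1 SD. With 3 libraries this holds for any values, so it says nothing about how steady the levels are. The members lower numbered 2, and 1 in limma on log2(FPKM + 0.5), 1 on log2(FPKM + 0.1), 1 with the replicate block, 3 in DESeq2 and 1 to 2 without 1 library. Bach1 110533253 lost its call in 8 fits (edgeR adjusted p 0.061 with the replicate block, limma 0.0575 and 0.0613). The labels do not say whether same-numbered libraries belong together. Correlations of same-numbered deviations were -0.0543, 0.0369 and -0.0402, which with 3 libraries per group cannot settle it. The block moved calls over all genes from 1398 to 1046. Those calls numbered 826 and 771 in limma, 2186 without control replicate 1 and 361 to 496 without any other single library.

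The sign of a fold change turned in 18 fits, all at loci with no call. Over the 6 fits without 1 library, log2 fold changes ran from -0.0892 to 0.268 for keap1a, -0.0983 to 0.093 for NFE2L1 110499125, -0.0522 to 0.0298 for NFE2L2 110501922, -0.321 to 0.188 for maff, -0.209 to 0.0778 for MAFF 110502884 and -0.189 to 0.184 for MAFK 110485496. In limma they were NFE2L2 110501922 at 0.0099 and 0.0103, maff at 5.31e-05 and MAFK 110485496 at 0.0029 and 0.0049. MAFK 110485496 was at 0.00043 with RLE size factors and 0.00021 in DESeq2.

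List counts moved as follows. In both limma fits, CAND1's list had 0 higher, NFE2L1 processing 0 higher and 0 lower, antioxidant targets 1 higher and 0 lower, and NADPH supply 2 lower and 0 higher, and with a pseudocount of 0.1 the 20S core had 3 higher. With the replicate block these were 1 higher in NFE2L1 processing, 0 lower in antioxidant targets, 3 lower and 0 higher in NADPH supply, 2 higher in the 20S core and 1 in the 19S list. DESeq2 gave 2 higher and 1 lower in the list of NFE2L2 control and 5 higher in antioxidant targets, and no filter gave 2 higher and 2 lower in NFE2L2 control. The causes were not tested. Without 1 library the ranges were 0 to 1 higher and 0 to 2 lower for NFE2L2 control, 0 to 3 and 0 to 1 for NFE2L1 processing, 0 to 6 and 0 to 2 for antioxidant targets, 0 to 1 and 1 to 4 for NADPH supply, 1 to 6 higher for the 20S core and 1 to 2 for the 19S list.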
